A study of Arabidopsis thaliana with 64 samples.

Results

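The response of Arabidopsis thaliana roots to the auxin indole-3-acetic acid (IAA) was measured on medium that held nitrate and ammonium together. The 16 arrays of this nitrogen state were picked by their labels from the 64 arrays of the series, 8 with IAA and 8 without. Both arms held the same 4 combinations of the cytokinin kinetin and the stress hormone abscisic acid (ABA), and each combination had 2 arrays per arm. The groups without IAA were mock, kinetin, ABA, and kinetin with ABA, and the groups with IAA were IAA, IAA with kinetin, IAA with ABA, and IAA with both. Nitrate and ammonium were each present at 0.5 mM in all 16 samples, doses were 500 nM for IAA, 500 nM for kinetin and 1 µM for ABA, and KCl and DMSO stood in for absent signals. Plants were grown in hydroponics on ammonium succinate, for 14 to 16 days by the growth protocol and 12 to 14 days by the design text. They then spent 24 h without nitrogen, and roots were harvested 4 h after the signals were added. The sources used here name no ecotype or genotype. The design crosses nitrogen supply with hormones, and the question here was what IAA changed when both nitrogen sources were supplied, and whether kinetin, ABA or the nitrogen source altered that change.

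Auxin acts by bringing F-box receptors of the TIR1/AFB family together with Aux/IAA proteins, which are then degraded, so that ARF transcription factors are no longer held back. Among the early targets are genes that dampen the signal, namely the Aux/IAA genes themselves and GH3 genes, whose enzymes join auxin to amino acids. Others are LBD transcription factors, which act in the founding of lateral roots. In roots auxin also restrains elongation and shapes root hairs and vascular tissue.

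Levels are log2(intensity + 1), and an arm is given by its lowest, median and highest array. Differences are log2 differences of IAA minus no IAA averaged over the 4 combinations, ± SE, with 8 arrays against 8, and adjusted p-values come from limma with Benjamini-Hochberg adjustment over 22746 probe sets. In this comparison 66 probe sets passed at an adjusted p under 0.05, which is 0.29% of those tested, and 1587 had an unadjusted p under 0.05 (6.98%). The 66 comprised 42 that rose (0.185%) and 24 that fell (0.106%), and for 64 of them the change was 2-fold or more. Those that rose did so by a median of 2.36, and those that fell had a median of -1.68, beside a median of -0.04 over all probe sets. The annotation gave 1 gene for 29 of the 66, which were 21 that rose and 8 that fell. The other 37 have no single gene name here. The count depended on the fit: with the 16 arrays alone 11 passed, all of them up and among the 66, and adjusting for each array's median gave 124, of which 73 rose and 51 fell.

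**Figure D1:**
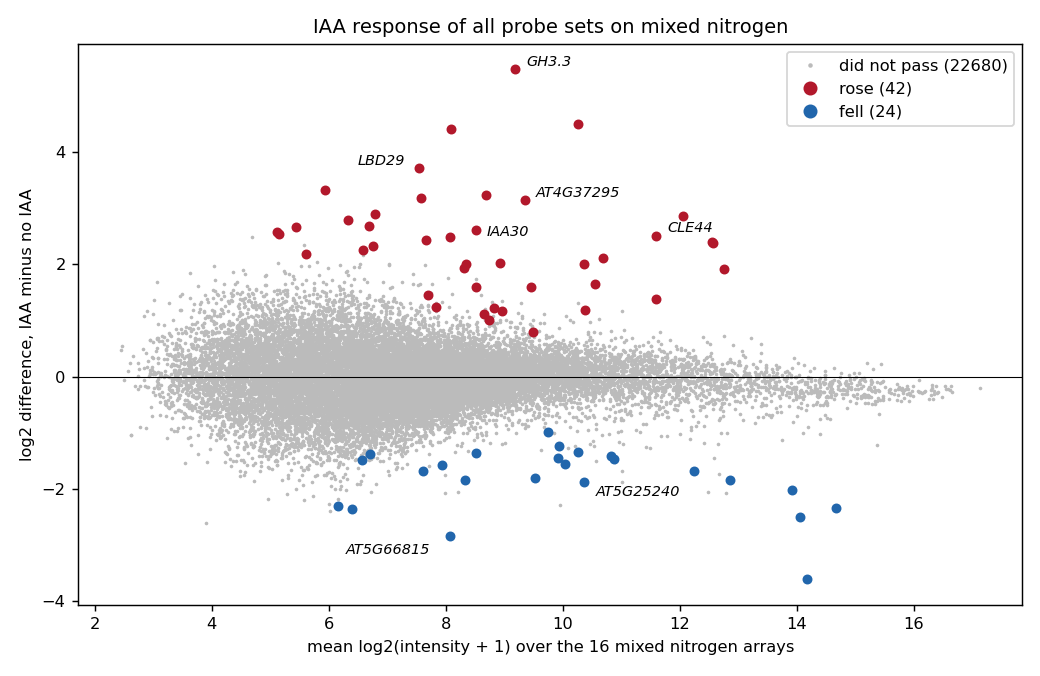
Each of the 22746 probe sets is placed by its mean log2(intensity + 1) over the 16 arrays (x axis) and its log2 difference, IAA minus no IAA (y axis). The 42 red points rose and the 24 blue points fell, and GH3.3 at 5.48 stands at the top.

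The largest named increase was that of GH3.3, an enzyme that conjugates auxin to amino acids. Its 8 arrays without IAA ran from 4.60 over a median of 6.46 to 8.39, and its 8 arrays with IAA from 11.29 over 11.93 to 12.94. The arms did not overlap, and the arrays with IAA spread far less, with an SD of 0.51 against 1.64. The difference was 5.48 ± 0.48 (44.6-fold, adjusted p = 1.90e-09). The mean without IAA, 6.45, lay below the lowest array median of 6.97, where background is unknown, so the size of the fold is uncertain. Its relative GH3.1 rose by 2.67 ± 0.53 (adjusted p = 0.0097), from a median of 3.97 to 7.15. GH3.1 had 6 of its 8 IAA arrays above every array without IAA, and without kinetin replicate 1 or IAA with kinetin replicate 2 its values of 2.40 and 2.22 did not pass. With a pseudocount of 64, which damps dim probe sets, GH3.1 rose by 1.15.

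Of the 10 GH3 genes in the RefSeq table, 5 had a named probe set, of which 2 rose and 3 did not pass, and the median difference was 1.08. WES1, also known as GH3.5, whose enzyme conjugates both auxin and salicylic acid, stood at 1.08 ± 0.25 (adjusted p = 0.0522). Its arms ran from 8.11 over 8.84 to 9.34 without IAA and from 9.14 over 9.54 to 11.71 with IAA. Of its 8 IAA arrays 5 lay above every array without IAA. The difference of WES1 was 1.67 within replicate 1 and 0.49 within replicate 2. WES1 passed in 9 of the 25 other settings tried. GH3.17 stood at -0.37 ± 0.24 (adjusted p = 0.844) and GH3.9 at 0.02 ± 0.43 (adjusted p = 0.996).

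Of the 32 Aux/IAA genes, 7 were named on the array, 2 rose and 5 did not pass, with a median difference of 0.31. The rest of the family had no named probe set, so these counts do not describe the family as a whole. IAA29 rose by 2.68 ± 0.55 (adjusted p = 0.0133). Without IAA it ran from 2.98 over 5.48 to 7.82 and with IAA from 5.78 over 8.10 to 9.03, and 7 of 8 IAA arrays lay above every array without IAA. IAA30, which belongs to the Aux/IAA proteins without the usual degradation motif, rose by 2.61 ± 0.36 (adjusted p = 2.40e-05). Its arms did not overlap, at 5.00, 7.92 and 8.05 without IAA and 8.60, 9.73 and 11.34 with IAA. The 2 mock arrays, at 5.00 and 5.28, were lower than the other 6 arrays without IAA, which lay between 7.45 and 8.05. IAA20 (0.38), IAA18 (0.31), IAA33 (0.19), IAA31 (-0.19) and IAA34 (-0.23) had adjusted p-values of 0.883 or more. With a pseudocount of 64 IAA29 rose by 1.44, and it did not pass without any single one of 4 arrays, with values from 2.14 to 2.52 and adjusted p up to 0.0861.

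LBD29, an LBD transcription factor that acts in the initiation of lateral roots, rose by 3.72 ± 0.56 (13.2-fold, adjusted p = 0.000146). It ran from 4.13 over 5.71 to 6.91 without IAA and from 7.63 over 9.18 to 12.33 with IAA, without overlap. Its mean without IAA, 5.68, also lay below the array medians. LBD16, which acts beside it, stood at 0.24 ± 0.43 (adjusted p = 0.97). PUCHI, an AP2-type transcription factor that limits cell division in young lateral roots, stood at 0.83 ± 0.28 (adjusted p = 0.402), with medians of 8.04 without IAA and 8.90 with IAA. Of the 28 lateral root genes searched for, these 3 were named, and 1 rose.

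**Figure D2:**
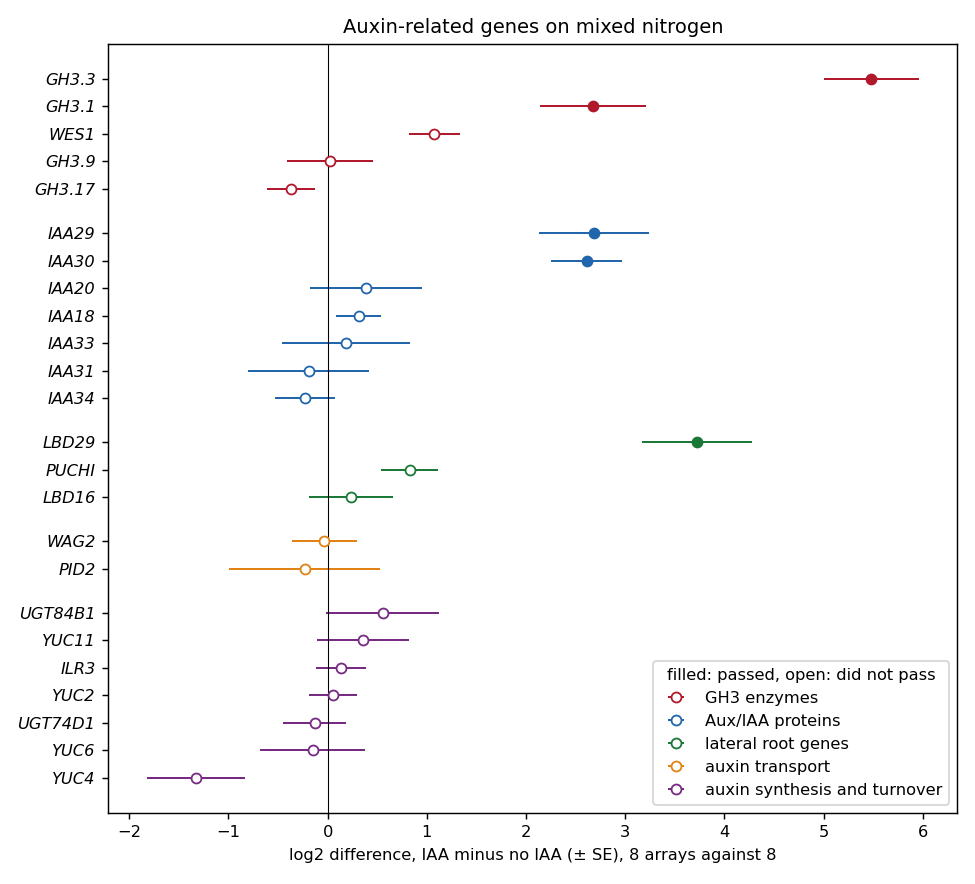
Points are log2 differences, IAA minus no IAA, with bars of 1 SE (8 arrays against 8), for each named gene of the GH3, Aux/IAA, lateral root, auxin transport and auxin synthesis lists. Filled points (GH3.3, GH3.1, IAA29, IAA30 and LBD29) passed, and the open ones did not.

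Few other genes that make, move or inactivate auxin had a named probe set, and none of those passed. Of 27 transport genes 2 were named. These, WAG2 and PID2, are kinases of the family that phosphorylates PIN auxin carriers and stood at -0.04 ± 0.33 and -0.23 ± 0.76. Of 28 genes of auxin synthesis and turnover 7 were named and 0 passed, and YUC4, a flavin monooxygenase of auxin synthesis, had an unadjusted p of 0.0107 at -1.33 ± 0.49 (adjusted p = 0.49). ILR3 on that list is known as a bHLH transcription factor. HAT2, an auxin-inducible HD-ZIP transcription factor, stood at 1.76 ± 0.44 (adjusted p = 0.0774), with medians of 7.07 without IAA and 8.83 with IAA. The lists of SAUR genes, of receptors and ARFs, and of dirigent-like genes had 0 named members.

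CLE44, a peptide gene whose product keeps vascular stem cells from differentiating, rose by 2.51 ± 0.34 (5.71-fold, adjusted p = 2.40e-05). It ran from 9.27 over 10.16 to 11.93 without IAA and from 10.84 over 13.20 to 13.96 with IAA. IAA replicate 1, at 10.84, was the single IAA array within the range of the other arm. CLE44 was the 1 that passed of 17 signal peptide genes found by symbol or description. Peptide genes for which the annotation gives only a locus tag can be missing from that list, which holds CLE and RALF-like genes and none of the CEP family. Genes given here by locus tag, such as AT5G66815, are not covered by this count. CLE41, whose mature peptide is shared with CLE44, stood at -0.53 ± 0.33 (adjusted p = 0.821). CLE21, another CLE peptide gene, stood at 1.44 ± 0.66 (adjusted p = 0.662).

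Other genes that rose have a locus tag and no described function in the annotation used. AT4G37295 rose by 3.14 ± 0.41 (8.83-fold, adjusted p = 1.38e-05), from 7.14, 7.72 and 8.65 to 9.78, 11.18 and 11.81, without overlap. AT3G09280 rose by 2.87 ± 0.50 (adjusted p = 0.00186), from 9.38, 10.55 and 12.03 to 11.48, 13.90 and 15.14, with 6 of 8 IAA arrays above all others. AT2G41730 rose by 1.92 ± 0.35 (adjusted p = 0.00264), from 10.26, 12.13 and 12.61 to 12.75, 13.75 and 14.98. Its arms did not overlap, and its probe set is of a type (x) that can share probes with other transcripts. AT1G64405, AT4G09890 and AT3G19200 rose by 2.12 ± 0.26 (adjusted p = 2.59e-06), 1.38 ± 0.28 (adjusted p = 0.0116) and 1.19 ± 0.25 (adjusted p = 0.014). Leaving out a single array took the call from AT4G09890 for 4 of the 16 arrays (adjusted p up to 0.0543) and from AT3G19200 for 5 of them (adjusted p up to 0.08).

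PRXR1, a peroxidase, rose by 1.45 ± 0.30 (adjusted p = 0.0145). It ran from 5.17 over 7.47 to 7.97 without IAA and from 7.44 over 8.20 to 9.97 with IAA. For 5 of the 16 arrays, leaving that array out took its call (adjusted p up to 0.0798). AT4G21740 (3.33 ± 0.55), AT5G62280 (2.58 ± 0.56), AT4G35210 (2.55 ± 0.52) and AT1G23340 (2.34 ± 0.49) rose from dim levels, with means without IAA of 4.28, 3.83, 3.87 and 5.58. Smaller increases were those of AT1G43910 (1.12 ± 0.26), AT4G17350 (1.00 ± 0.21) and AT3G51670 (0.80 ± 0.18), and the last had 3 of 4 combinations up and kinetin at -0.10. The largest increases without a gene name were 247869_at, at 4.51 ± 0.24 (adjusted p = 9.87e-16), and 262099_s_at, at 4.41 ± 0.41 (adjusted p = 6.95e-09), both without overlap between the arms. The medians of 247869_at were 8.16 without IAA and 12.57 with IAA, and those of 262099_s_at were 6.23 and 10.39.

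Among the genes that fell, AT5G66815 had the largest named decrease, -2.85 ± 0.57 (7.22-fold, adjusted p = 0.00975). It ran from 8.27 over 9.56 to 10.99 without IAA and from 4.48 over 6.71 to 8.69 with IAA, and IAA with kinetin replicate 2 was the array that overlapped. Without IAA with ABA replicate 1 it stood at -2.56 (adjusted p = 0.0554). AT5G25240 fell by 1.88 ± 0.30 (adjusted p = 0.000415), with every IAA array (7.57, 9.64 and 10.34) below every other (10.70, 11.30 and 12.07). AT1G19900 fell by 1.68 ± 0.31 (adjusted p = 0.003), also without overlap, from 8.11, 8.39 and 8.87 to 5.41, 6.81 and 8.06. AT2G47540 fell by 1.46 ± 0.24 (adjusted p = 0.000675), with 7 of 8 IAA arrays below the lowest other array at 10.00.

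AT3G43960 fell by 1.85 ± 0.38 (adjusted p = 0.0137), AT1G07300 by 1.37 ± 0.28 (adjusted p = 0.0137) and AT4G22460 by 1.42 ± 0.33 (adjusted p = 0.048). AT3G43960 had medians of 9.36 without IAA and 7.57 with IAA, and AT1G07300 had 9.19 and 7.84. The arms of AT4G22460 overlapped widely, from 8.95 to 12.64 without IAA and from 9.29 to 10.98 with IAA. In that order the 3 calls depended on 7, 4 and 12 single arrays, without which the adjusted p reached 0.091, 0.0855 and 0.2. The largest decreases without a gene name were 254820_s_at, at -3.62 ± 0.43 (adjusted p = 1.86e-06), and 248252_at, at -2.51 ± 0.41 (adjusted p = 0.000675). The medians of 254820_s_at were 16.14 without IAA and 12.96 with IAA, and those of 248252_at were 15.19 and 12.70.

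**Figure D3:**
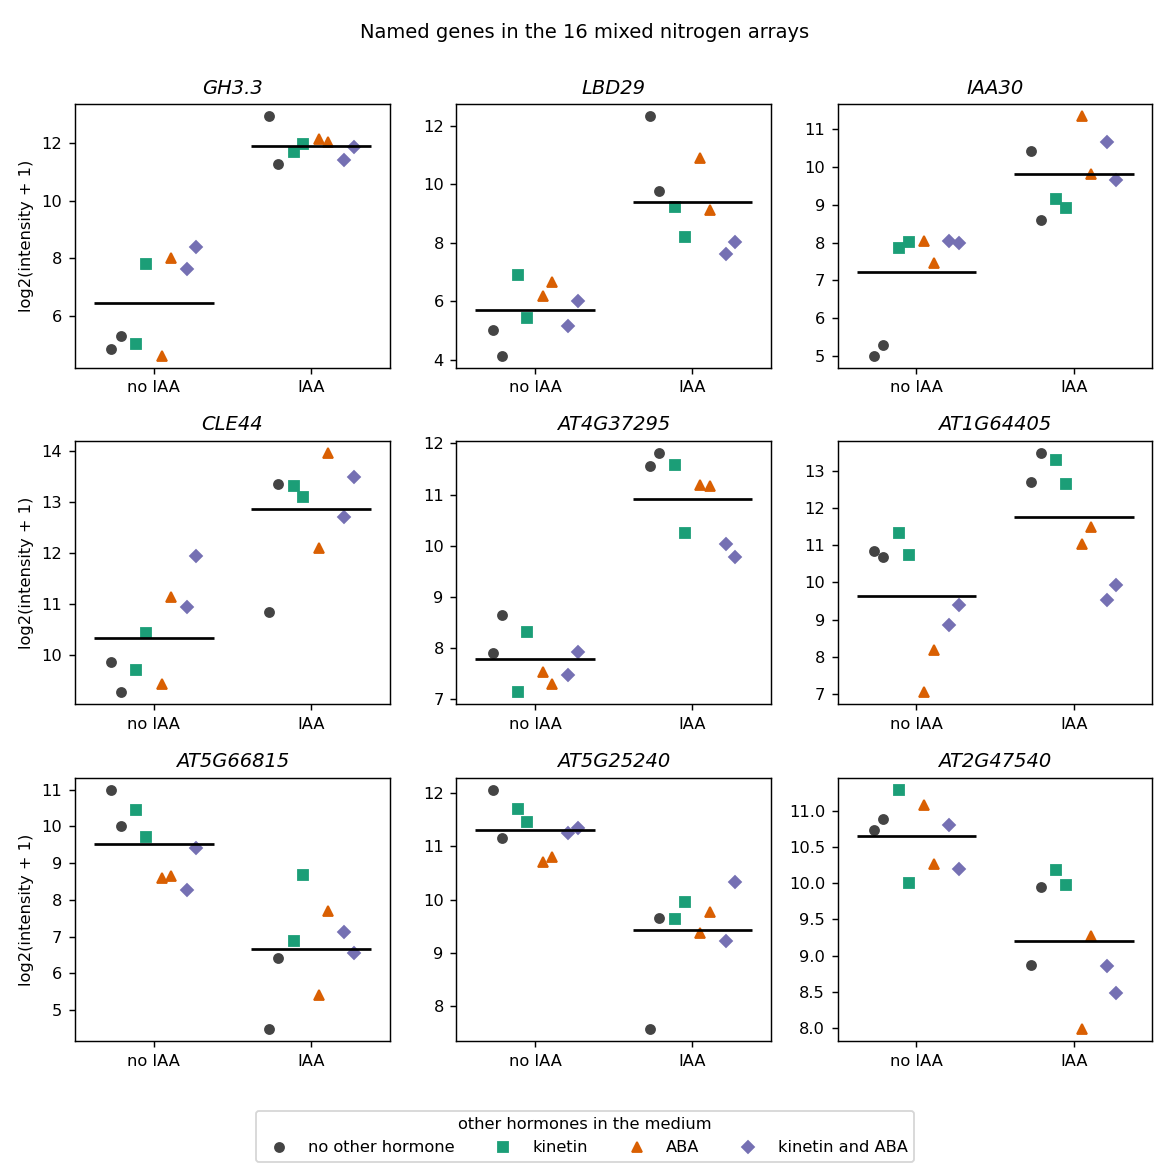
Each panel shows 1 gene in the 16 arrays as log2(intensity + 1), with arrays without IAA on the left and with IAA on the right. Symbols mark the other hormones and lines the mean of 8 arrays. The arms of GH3.3, LBD29, IAA30, AT4G37295 and AT5G25240 do not overlap, while AT1G64405 splits by ABA in both arms.

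The arms did not overlap for 15 of the 42 probe sets that rose and 4 of the 24 that fell, against 0.0923% and 0.0176% of all probe sets in these directions. These shares too are descriptive, since the 42 and the 24 were called on the same 16 arrays. Within the 8 arrays numbered replicate 1 and within the 8 numbered replicate 2, 4 against 4, all 19 genes named by the size of their change kept their sign, which is a description, since they were chosen on these 16 arrays for 1 sign in every combination. Replicate 2 had the higher array median in 7 of 8 groups, and in mock it was lower by 0.25 on the log2 scale.

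The remaining lists held no call, and most of their genes had no named probe set. Named were 8 of 96 cytokinin, 8 of 53 ABA, 3 of 34 gibberellin, 2 of 77 ethylene and 1 of 86 cell cycle genes. Their counts therefore say little about whole pathways. Of 29 expansins and other wall-loosening enzymes 0 passed, with a median of -0.13. EXPA18, an expansin of root hair cells, stood at -0.86 ± 0.27 (adjusted p = 0.28), with medians of 9.66 without IAA and 8.87 with IAA, and EXPA7, its root hair relative, at -0.13 (adjusted p = 0.97). Of 89 genes on the nitrogen list 12 were named, which are transporter genes, and 0 passed, with a median of -0.29. Genes of nitrogen assimilation were not among the 12. Of 8 cytokinin genes 0 passed, with a median of -0.44, and the response regulator RR16 stood at -0.79 ± 0.31 (adjusted p = 0.542). Counts were also 0 for 8 ABA response genes (median 0.47), 6 peroxidases found by symbol or description (0.46, a list that does not hold PRXR1, itself a class III peroxidase that rose), 5 glutaredoxins (0.06), 4 pectin enzymes (-0.29), 3 gibberellin genes (0.54), 2 ethylene genes (0.19), 1 iron gene (-0.56) and 1 cell cycle gene (0.17).

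The tissue label was checked against a list of markers, and of its 24 root markers only 3 were named. EXPA7 and EXPA18 lay above the array median in 16 of 16 arrays and AGL42, a root stem cell niche gene, in 15 of 16. Of 8 nuclear genes of photosynthesis, LHCB4.2 was above the median in 0 arrays, LHCB4.1 in 6 and PSAE-1 in 8. PSAN and LHCB4.3 were above it in 12, RCA in 14, PSBY in 15 and PSBW in 16. The green list also held 20 chloroplast genes. Of these, psbF, psaJ, psbM, psbZ, psaB, psaI, psbJ, psbL, psbI, psbA and psbK were above it in 16 of 16 arrays. The other chloroplast genes ran from psbH in 1 to psbN in 14, and psbM was brightest at 13.71 to 16.98. Genes of both kinds lay above the median, so these levels alone do not decide the label. Of the 8 nuclear genes 0 passed the test for IAA, and of the 20 chloroplast genes 0. The summed root markers differed by -0.38 on the log2 scale with IAA, at 9.67 to 11.22 against 10.45 to 11.06 (exact permutation p = 0.0602, adjusted p = 0.481 over 8 array-level measures), and their part in the gene results was not tested. The summed nuclear green markers differed by 0.13 (exact permutation p = 0.551) and the chloroplast genes by -0.33 (exact permutation p = 0.386). The log2 3′ to 5′ ratio of an actin control, a sign of RNA quality, averaged 4.48 with IAA and 4.18 without on 1 pair of probe sets. On the other pair it averaged 5.71 and 6.40. The ratios of GAPDH averaged 7.45 and 8.25 and those of ubiquitin 3.55 and 3.69. Signal was thus strongly weighted to the 3′ end in both arms, and what this did to the gene results was not tested. The actin ratios differed by 0.30 and -0.69 between the arms (exact permutation p = 0.133 and 0.194). GAPDH differed by -0.80 and ubiquitin by -0.14 (exact permutation p = 0.276 and 0.711). When the fit was adjusted for the actin ratios, 63 and 65 probe sets passed. In whole roots fewer cells of a type and less RNA per cell cannot be told apart.

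IAA without kinetin or ABA was also set against mock, 2 arrays against 2. In limma 11 probe sets passed (0.0484%), 8 up (0.0352%) and 3 down (0.0132%), and 1244 had an unadjusted p under 0.05 (5.47%). GH3.3 rose by 7.06 ± 0.96 (adjusted p = 0.000131), from 4.82 and 5.29 to 12.94 and 11.29. LBD29 rose by 6.48 ± 1.11 (adjusted p = 0.00668), from 5.00 and 4.13 to 12.33 and 9.76, and IAA30 by 4.37 ± 0.71 (adjusted p = 0.00365), from 5.00 and 5.28 to 10.42 and 8.60. AT5G25240 fell by 3.00 ± 0.60 (adjusted p = 0.0355), from 12.07 and 11.15 to 7.57 and 9.65. In these 4 genes replicate 1 with IAA lay farther from mock than replicate 2. With the 16 arrays alone 0 passed. Leaving out a single array gave 5 without mock replicate 1, 6 without mock replicate 2, 36 without IAA replicate 1 and 27 without IAA replicate 2. Of the 36, 5 were up, 31 down and 2 among the 11.

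The response was then followed through the other hormones. Of the 66 probe sets 63 had the same sign in 4 of 4 combinations, against 17.2% of all probe sets, and this is a description, since they were called on the mean of the 4. The median increase of the 42 was 2.62 without other hormones, 2.49 with kinetin, 2.21 with ABA and 2.01 with both. The medians of the 24 decreases were -2.19, -1.72, -1.64 and -1.46. Over all probe sets the medians were 0.04, -0.01, -0.06 and -0.12. GH3.3 differed by 7.06, 5.42, 5.79 and 3.65 in that order, LBD29 by 6.48, 2.55, 3.60 and 2.25, and CLE44 by 2.53, 3.13, 2.74 and 1.65.

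**Figure D4:**
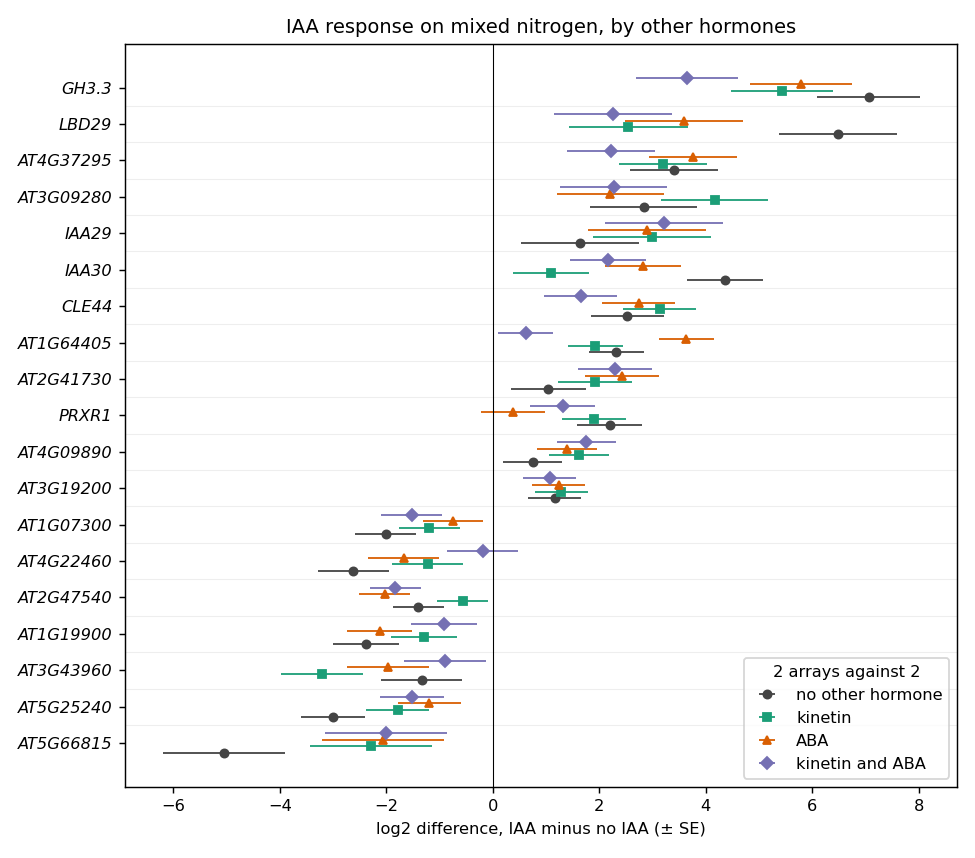
Log2 differences, IAA minus no IAA, of the 19 genes named by size are shown for each of the 4 combinations of kinetin and ABA (2 arrays against 2, bars of 1 SE). LBD29 runs from 2.25 with both hormones to 6.48 with neither, within wide bars.

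Whether ABA altered the IAA response was tested as a difference of differences, and in limma 0 probe sets passed, with 914 at an unadjusted p under 0.05 (4.02%). GH3.3 differed by 6.24 without ABA and 4.72 with it, a difference of -1.52 ± 0.96 (unadjusted p = 0.121). Its values without and with ABA were 7.57 and 6.14 without nitrogen, 8.29 and 6.59 on nitrate, and 7.74 and 4.95 on ammonium. The change with ABA in those states was not tested. AT1G64405 was lower with ABA in both arms. Its arrays without IAA lay at 10.67 to 11.34 without ABA and 7.05 to 9.39 with it, and its arrays with IAA at 12.65 to 13.47 and 9.54 to 11.50. The IAA difference was 2.12 without ABA and 2.13 with ABA, a change of 0.01 ± 0.52. The same split by ABA was present in the other 48 arrays, at 11.10 to 12.62 against 7.89 to 9.57 without IAA and 13.04 to 14.69 against 9.58 to 12.28 with IAA. Leaving out a single array gave up to 9 passing probe sets, the most without replicate 1 of kinetin with ABA.

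For kinetin 0 probe sets passed in limma as well, with 850 at an unadjusted p under 0.05 (3.74%). LBD29 differed by 5.04 without kinetin and 2.40 with it, a difference of -2.64 ± 1.11 (unadjusted p = 0.023, adjusted p = 0.999). For IAA30 this difference was -1.97 ± 0.71 and for AT1G64405 -1.71 ± 0.52, at unadjusted p-values of 0.0089 and 0.0021, and neither passed. In the other 48 arrays the same difference was -0.86 ± 0.64 for LBD29, 0.61 ± 0.41 for IAA30 and -0.81 ± 0.30 for AT1G64405, and none of these passed.

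AT1G15600, which has no described function in the annotation used, stood apart from this, and it was picked out after its values were seen. Over all 4 combinations it rose by 1.17 ± 0.26 (adjusted p = 0.0269). With kinetin in the medium its 4 arrays without IAA lay between 8.01 and 9.27 and its 4 arrays with IAA between 10.79 and 11.36. Without kinetin the arms overlapped, at 7.13 to 9.03 without IAA and 7.18 to 9.10 with IAA. The IAA difference was 2.65 with kinetin, 2.54 with kinetin and ABA, -0.70 without either and 0.20 with ABA alone. The change with kinetin was 2.85 ± 0.52 (adjusted p = 0.0854), and it passed in 7 of the 25 other settings. The lowest adjusted p was that of quantile normalization, at 3.06 ± 0.45 (adjusted p = 0.00142). With the 16 arrays alone it did not pass. The same comparison was made in the other 48 arrays, and since the gene was picked with results of the whole series known, this is no independent support. There the IAA difference was larger with kinetin by 2.21 ± 0.30 (adjusted p = 0.000277), in a comparison where 4 probe sets passed (0.0176%). With kinetin it was 2.23 without nitrogen, 2.61 on nitrate and 3.16 on ammonium, and without kinetin 0.19, 0.86 and 0.32.

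The response on mixed nitrogen was set beside that of the other nitrogen states, each with 8 arrays against 8 of its own. Nitrate or ammonium given alone was at 1 mM, so dose differs with source. Of the 66 probe sets, 46 were called in the same direction without nitrogen, which is 69.7% of them and 42.6% of the 108 called there (0.475% of all tested, 0.251% up and 0.224% down). On nitrate 38 were called, 57.6% of the 66 and 45.2% of 84 (0.369%, 0.246% up and 0.123% down). On ammonium 44 were called, 66.7% of the 66 and 44% of 100 (0.44%, 0.273% up and 0.167% down). The sign was the same in all 3 other states for 62 of the 66, and 30 were called in all 3. For these counts the share over all probe sets was not computed. The states share 1 estimate of the spread per probe set, so their calls are not independent and the overlap is a description. Of all probe sets, 34.8% lay above 0 without nitrogen, 52.3% on nitrate and 59.8% on ammonium. Among the genes named by size, GH3.3, LBD29, AT4G37295, AT3G09280, IAA29, IAA30, CLE44 and AT1G64405 were called up in every state, and AT5G66815, AT1G19900 and AT2G47540 were called down in every state. PUCHI, uncalled here at 0.83, stood at 0.55 without nitrogen (adjusted p = 0.652), 1.38 on nitrate (adjusted p = 0.00992) and 1.66 on ammonium (adjusted p = 0.000912). HAT2, uncalled here at 1.76, rose by 2.73, 2.09 and 2.58 in these states (adjusted p = 0.000313, 0.0125 and 0.000852). Whether these values differ from those on mixed nitrogen is covered by the tests of the differences, in which neither gene passed.

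**Figure D5:**
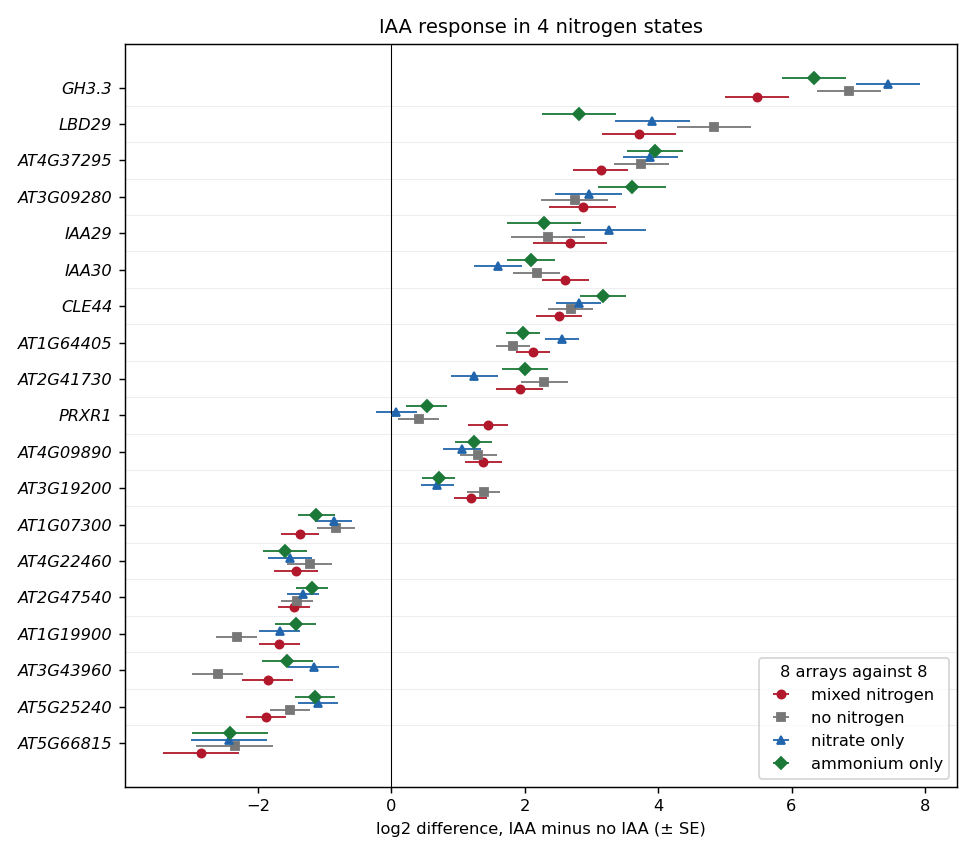
Log2 differences, IAA minus no IAA, of the 19 genes named by size are shown for each nitrogen state (8 arrays against 8, bars of 1 SE). Most genes stand close together, GH3.3 is lowest on mixed nitrogen at 5.48, and PRXR1 is highest there at 1.45.

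Differences of the IAA response between nitrogen states were tested directly. In limma 0 probe sets passed for mixed nitrogen minus no nitrogen (719 at an unadjusted p under 0.05, or 3.16%), 0 minus ammonium only (1047, or 4.6%) and 0 minus the mean of the 3 others (813, or 3.57%). The GH3.3 difference was 5.48 on mixed nitrogen, 6.85 without nitrogen, 7.44 on nitrate and 6.34 on ammonium, and its difference from the mean of the others was -1.40 ± 0.55 (unadjusted p = 0.016, adjusted p = 0.997). With IAA the level of GH3.3 was close in the 4 states, at means of 11.93, 11.97, 12.45 and 12.15. Without IAA it was 6.45 ± 1.64 (SD, n = 8) on mixed nitrogen, 5.11 ± 1.03 without nitrogen, 5.01 ± 1.57 on nitrate and 5.80 ± 1.69 on ammonium, within overlapping ranges of dim values.

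PRXR1 and AT1G23340 passed on mixed nitrogen and in no other state. PRXR1 differed by 0.41 without nitrogen, 0.08 on nitrate and 0.53 on ammonium, and the difference from their mean was 1.11 ± 0.35 (unadjusted p = 0.0032, adjusted p = 0.997). Its level without IAA averaged 6.97 on mixed nitrogen against 7.38 to 7.96 elsewhere. AT1G23340 differed by 0.05, 0.53 and 0.61 in these states, and its difference from their mean was 1.94 ± 0.57 (unadjusted p = 0.0017, adjusted p = 0.997). Its level without IAA averaged 5.58 ± 1.87 on mixed nitrogen and 7.10 to 7.18 elsewhere, while with IAA it was 7.92 on mixed nitrogen and 7.23 to 7.71 elsewhere. In all, 12 of the 66 were called in none of the other states, 7 up and 5 down, and for none of them but AT3G24070 did a difference between states pass.

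Against nitrate only, 1 probe set passed in limma (0.0044%), with 943 at an unadjusted p under 0.05 (4.15%). AT3G24070 fell with IAA on mixed nitrogen by 1.49 ± 0.34 (adjusted p = 0.0357), from a median of 7.70 to 5.43. This decrease did not pass without any single one of 10 of the 16 arrays (values from -1.20 to -1.52, adjusted p up to 0.16), nor in 4 of 9 other settings, with a value of -0.82 at a pseudocount of 64. On nitrate it stood at 1.29 ± 0.34 (adjusted p = 0.106), from a median of 6.33 to 7.70. The difference between the states was -2.78 ± 0.48 (adjusted p = 0.0309). On mixed nitrogen its IAA difference was 0.46 without other hormones, -2.87 with kinetin, -1.10 with ABA and -2.44 with both. The difference did not pass without any single one of 10 of the 16 mixed nitrogen arrays, and under quantile normalization, the second actin ratio as a covariate and a fit to the 32 arrays of this comparison 0 passed.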

How the data were processed

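RNA of roots was hybridised to Affymetrix arrays, 1 array per sample, after Trizol extraction and biotin labelling per the labels' protocols. The deposited values are intensities, 1 per probe set and array. The values show that the authors scaled each array to a mean of 500 with the lowest and highest 2% of probe sets left out, and array medians of the 16 arrays ran from 124 to 279. The sources used here name no summary software or background step. The number of arrays limits the precision.

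Intensities were taken as log2(value + 1), a pseudocount that understates changes of dim probe sets. The 64 control probe sets were left out and 22746 were tested without a filter. A model with 1 mean for each of the 32 groups was fitted to all 64 arrays (limma 3.58.1, R 4.3.3), so that groups of 2 share 1 estimate of the spread. Array-level values were compared by exact permutation, two-sided, within combinations (1296 arrangements). Arrays of a group are not said to come from separate cultures, so p-values measure only the spread between samples, which may be technical. Duplicate arrays correlated at 0.724 (IAA alone) to 0.876 (mock) across probe sets and none were identical.

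The platform annotation gave 1 gene for 13513 tested probe sets, several for 503 and none for 8730, and 13436 matched the RefSeq table of TAIR10.1, used for names. Genes named by size had an adjusted p under 0.05, 1 sign in 4 of 4 combinations and a mean of at least 8 in the brighter arm. The 12 largest of 14 increases and all 7 decreases were taken, with every named gene of the auxin and lateral root lists. The other genes that passed are given beside them outside that rule. The arrays, lists and rules were chosen with earlier results of these data known. A planned promoter search was not run, since no sequences were used here. Other settings were a pseudocount of 64, quantile normalization, subsets of arrays, leaving out the dimmest 40% of probe sets, the array median or actin ratio as a covariate, a replicate block and leaving out each array. The second actin ratio, quantile normalization with a block, and the kinetin comparison in the other 48 arrays were chosen after seeing the data.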

Additional observations from a re-analysis of the deposited data

Results flagged for a closer look

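The IAA response of AT3G24070 differed between mixed nitrogen and nitrate only by a tested log2 difference of -2.777 (adjusted p = 0.0309), with a decrease of 1.49 on the former and a value of 1.29 on the latter. Without nitrogen the value was -0.44 and on ammonium 0.27. The probe set is dim, with medians between 5.43 and 7.70 in these 4 arms. Its SD on mixed nitrogen was 1.44 with IAA and 1.08 without, against 0.49 and 0.45 on nitrate.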

How the results depend on the processing

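Of the 19 genes named by size, 5 (GH3.3, LBD29, AT4G37295, IAA30 and AT1G64405) kept their call in all 25 other settings and all 19 kept their direction. The count of 66 became 101 with a pseudocount of 64, 11 with the 16 arrays alone and 124 adjusted for the array median, and 52 to 86 when single arrays were left out, of which 46 to 59 were shared. IAA alone against mock (11) gave 21 with a pseudocount of 64, 22 with quantile normalization, 0 with the 16 arrays alone (787 at an unadjusted p under 0.05), 19 without the dimmest 40% of probe sets, 40 adjusted for the array median and 5 for the actin ratio, and 5 to 36 without single arrays. The kinetin difference (0) gave 1 with a pseudocount of 64, 2 with quantile normalization, 1 without dim probe sets, 2 with the array median, and 0 to 3 without single arrays. The ABA difference gave 0 to 9 without single arrays and the difference from the mean of the others 0 to 1. The difference from nitrate (1) gave 0 with quantile normalization, 0 with the 32 arrays of the comparison, 0 with the second actin ratio, and 0 to 1 without single arrays. The numbers do not pair the arrays by the labels, and deviations of same-numbered arrays correlated over 0.1 in 21 of 28 pairs of groups. The exceptions were the pairs that hold mock, at -0.156 to -0.0587. With a replicate block 91 passed for IAA and 18 for IAA alone. With quantile normalization and a replicate block IAA alone gave 33, kinetin 2 and nitrate 0. Uncalled genes near 0 changed sign. GH3.9 was -0.0557 with a pseudocount of 64 and ran from -0.38 to 0.42 without single arrays. WAG2 was 0.0660 with quantile normalization, with or without a block, 0.0492 with the array median, 0.101 and 0.0283 with the actin ratios, and ran from -0.31 to 0.24. IAA33 ran from -0.11 to 0.48, IAA31 from -0.63 to 0.25 and PID2 from -0.82 to 0.35. The cause of these shifts was not tested. Values below the array median, as for GH3.3 without IAA, limit what folds can show.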
